A study of Rattus norvegicus with 17 samples.

Results

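The 8 genes described here handle fatty acids and short-chain fatty acids in the colon: Ppara, Cpt1a, Acadm, Acadl, Pdk4, Angptl4, Slc16a1 and Slc5a8. Members were taken as every probe that is not a control and whose gene name on the array equals the member's symbol. By that rule 7 of the 8 genes had a probe, 1 each, among 41012 probes, and no probe carried the name Slc5a8. Of these 7 genes, 6 were bright enough to be compared between the diets, and Pdk4 was not well above background on any of the 17 arrays.

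Gene expression was measured in colon mucosa scraped from 17 individually housed female rats, with 1 array per rat. The high calcium group held 8 rats fed 120 mmol calcium per kg diet, and the low calcium group held 9 rats fed 30 mmol per kg. Both groups ate a purified Western-type diet with palm and corn oil, in which the extra calcium took the place of glucose, so the diets also differed in glucose. Every rat of both groups carried the HLA-B27/β2-microglobulin transgenes on an inbred Fisher 344 background and was 8 to 10 weeks old at the start. Rats with these human transgenes are known for spontaneous inflammation of the colon, and no rat without them is part of the comparison. Each array set the RNA of 1 rat, labelled with Cy5, against a Cy3-labelled pool of all the animals, and values are log2 ratios of rat to pool, so that 0 means the level of the pool.

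As background, colonocytes take up butyrate made by bacteria through the monocarboxylate transporter encoded by Slc16a1 and the sodium-coupled transporter encoded by Slc5a8, and oxidise it in mitochondria as their main fuel. Long-chain fatty acids enter the mitochondrion through the carnitine shuttle, whose controlled step is Cpt1a, and are then shortened by acyl-CoA dehydrogenases such as Acadl and Acadm. Fatty acids also activate the nuclear receptor encoded by Ppara, of which Cpt1a, Acadm, Pdk4 and Angptl4 are well known targets. Calcium in the gut lumen precipitates fatty acids as soaps, and the comparison asks whether these genes differed with the calcium content of the diet.

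Over the arrays, 60.0% to 72.0% of probes were well above background in Cy5, and 27101 probes were tested. In limma's test 0 of them (0%) had an adjusted p under 0.05, while 2382 (8.79%) had an unadjusted p under 0.05, of which 1070 (3.95%) were higher and 1312 (4.84%) lower in high calcium rats. Without the high calcium rat 3 the count past the adjusted threshold was 193, and without the low calcium rat 16 it was 38. All 14 epithelial markers were tested. Of 8 hepatocyte markers 2, Apob and Serpina1, were tested. The others, Alb, Apoa1, Cps1, Fgb, Tat and Ttr, were not well above background on enough arrays to be tested. In scrapings, fewer cells of a type and less RNA per cell cannot be told apart.

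None of the 6 members tested passed at an adjusted p of 0.05, and in the main fit none had an unadjusted p under 0.05. The unadjusted limma p depended on the setting. For Angptl4 it was 0.0153 with the Cy5 channel alone, 0.00282 without rat 3 and 0.399 with median centring. For Acadl it was 0.0370 with array weights and 0.494 with median centring. No member passed adjustment in these settings. The mean was higher in high calcium rats for Ppara, Cpt1a, Acadm, Acadl and Slc16a1 and lower for Angptl4, with differences between -0.18 and 0.16 on the log2 scale. The median difference over the 6 was 0.08, against 0.01 over all probes tested, and 54.0% of all probes had a positive difference. Since p-values did not pass, the 95% intervals give the sizes left possible for each gene alone under the main processing. They reach 0.38 for Acadl and -0.36 for Angptl4. These intervals do not cover the choice of processing. That of Ppara ends at 0.14, and the processed signals of the scanner software gave a difference of 0.31.

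**Figure D1:**
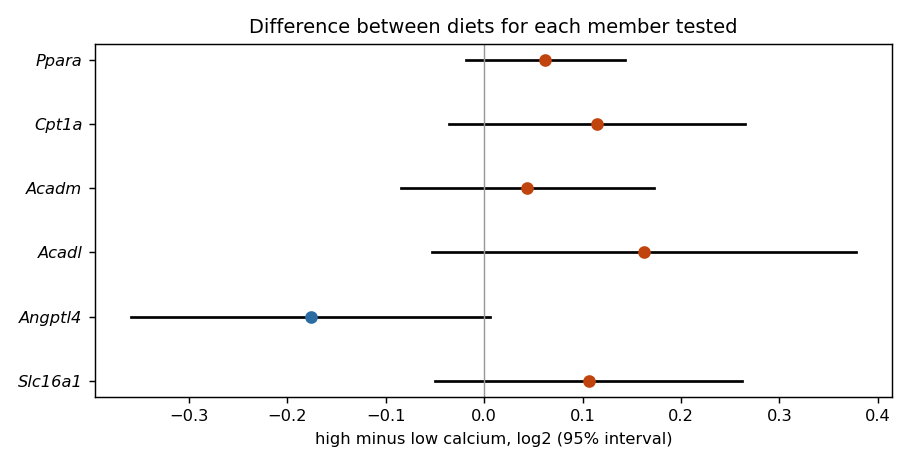
Difference between diets for each of the 6 genes tested, in high minus low calcium rats on the log2 scale (x axis); points are limma estimates from 8 against 9 rats and lines their 95% intervals. All 6 intervals include 0, and that of Angptl4 runs from -0.36 to 0.01.

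Ppara encodes the fatty acid receptor itself. Its 10 spots per array carry a probe at chr7:123841246-123841305 in the rn3 build, the build of the array files. In high calcium rats the log2 ratio had a lowest value of -0.02, a median of 0.05 and a highest value of 0.12, and in low calcium rats these were -0.13, -0.01 and 0.13. The ranges overlapped, since low calcium rat 7 (0.13) was above every high calcium rat. Ppara averaged 0.05 ± 0.05 in high calcium rats and -0.01 ± 0.07 in low calcium rats (SD, n = 8 and 9), a difference of 0.06 ± 0.04 (SE; limma adjusted p = 0.697). The exact two-sided permutation test over all 24310 assignments of the rats gave p = 0.0524. Ppara lay close to background: its mean Cy5 signal was 92.5 to 128.4 units per array, and only 120 of its 170 spots were well above background. The spots of 1 array differed by a median SD of 0.12, which gives the probe mean of an array an SE of 0.04, close to the SD between rats of 0.05 in high and 0.07 in low calcium rats. The difference was -0.01 with each array centred on its median in place of loess, and 0.31 from the processed signals of the scanner software, so its direction and size depend on the processing.

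Cpt1a, the carnitine palmitoyltransferase that admits long-chain fatty acids to the mitochondrion, was measured by 10 spots at chr1:206065519-206065578. Its lowest, median and highest log2 ratios were -0.22, 0.04 and 0.24 in high calcium rats, against -0.27, -0.14 and 0.10 in low calcium rats. The high calcium rats 10, 17 and 18 lay above every low calcium rat, and the other 5 fell within the low calcium range. Cpt1a averaged 0.02 ± 0.19 in high and -0.10 ± 0.13 in low calcium rats (SD, n = 8 and 9). The difference of 0.11 ± 0.07, a 1.08-fold higher level, had a limma adjusted p of 0.698 and an exact permutation p of 0.160. Its spots agreed closely, with a median SD of 0.03 within an array, so the spread between rats was not set by the spots.

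Acadl, the long-chain acyl-CoA dehydrogenase (chr9:65760217-65760276), had the widest spread of the 6 genes in low calcium rats. Like Acadm, Angptl4 and Slc16a1 it was read by 1 spot per array, so its error within an array is unknown. The Cy5 signal of Acadl was 31547 to 62654 units, with 0 saturated spots. The log2 ratio ran over -0.39, -0.07 and 0.30 (lowest, median, highest) in high calcium rats and over -0.69, -0.18 and 0.07 in low calcium rats. Low calcium rat 11 was lowest of all at -0.69, and the high calcium rats 2 and 18 were above every low calcium rat. Acadl averaged -0.06 ± 0.23 in high and -0.22 ± 0.25 in low calcium rats (SD, n = 8 and 9), a difference of 0.16 ± 0.10 with an interval from -0.05 to 0.38 (limma adjusted p = 0.699; exact permutation p = 0.187).

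Acadm, the medium-chain acyl-CoA dehydrogenase (chr2:251881609-251881668), differed least between the diets. Its lowest, median and highest values were -0.15, 0.16 and 0.26 in high calcium rats and -0.13, 0.07 and 0.20 in low calcium rats, so the ranges almost coincided. The means were 0.10 ± 0.15 in high and 0.05 ± 0.11 in low calcium rats (SD, n = 8 and 9), and the difference was 0.04 ± 0.06, with an interval from -0.09 to 0.17 (limma adjusted p = 0.887; exact permutation p = 0.499).

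Pdk4 encodes the kinase that switches off pyruvate dehydrogenase and so spares glucose when fatty acids are burned. Its probe lies between positions 30283045 and 30284933 of chromosome 4 in rn3. The Cy5 signal was 59.9 to 77.9 units over a background of 43 to 57, and the spot was not well above background in any high or low calcium rat, so no fold and no test are given. The log2 ratios lay at -0.15 to 0.15 in high calcium rats and -0.13 to 0.12 in 8 of the 9 low calcium rats, with the ninth, rat 7, at 0.38.

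Angptl4 encodes a secreted inhibitor of lipoprotein lipase that fatty acids induce through the PPAR receptors, and hypoxia induces as well. It had the smallest unadjusted p of the 6 genes and was the only one with a lower mean in high calcium rats. The probe is at chr7:16262218-16262277. The 8 high calcium rats, numbered 2, 3, 9, 10, 13, 14, 17 and 18, had log2 ratios with a lowest value of -0.50, a median of -0.14 and a highest value of 0.39, against -0.08, 0.13 and 0.26 in the 9 low calcium rats. In 6 high calcium rats the value was under that of all low calcium rats, rat 9 (0.14) lay within the low calcium range, and rat 3 (0.39) lay above it. The means were -0.10 ± 0.27 in high and 0.08 ± 0.12 in low calcium rats (SD, n = 8 and 9). The difference of -0.18 ± 0.09, with an interval from -0.36 to 0.01, had an unadjusted limma p of 0.0573, an adjusted p of 0.584 and an exact permutation p of 0.0900. Without rat 3 it was -0.25, with an adjusted p of 0.142, and without rat 18, the other extreme, it was -0.12, with an adjusted p of 0.940.

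Slc16a1 encodes the monocarboxylate transporter MCT1, which carries butyrate and lactate with a proton. Its probe lies at chr2:199842858-199842917. The lowest, median and highest log2 ratios were -0.10, 0.13 and 0.44 in high calcium rats and -0.10, 0.05 and 0.23 in low calcium rats. High calcium rats 13 (0.29), 17 (0.43) and 18 (0.44) were above every low calcium rat, and the other 5 shared the low calcium range. Slc16a1 averaged 0.16 ± 0.21 in high and 0.06 ± 0.12 in low calcium rats (SD, n = 8 and 9), and the difference was 0.11 ± 0.08, with an interval from -0.05 to 0.26 (limma adjusted p = 0.737; exact permutation p = 0.210).

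**Figure D2:**
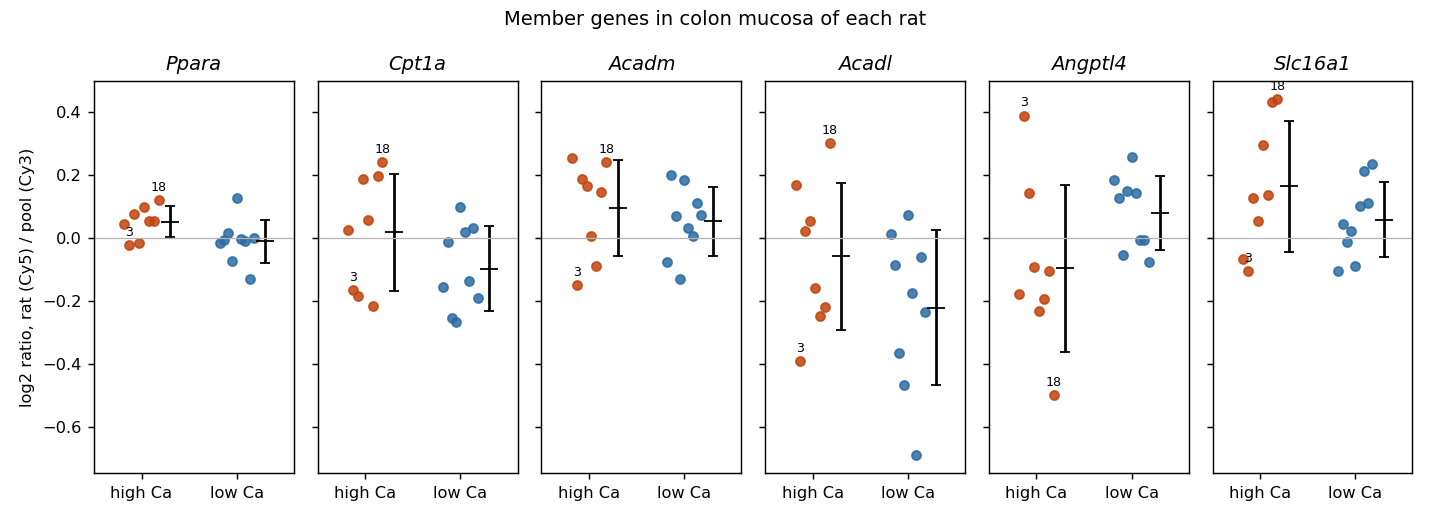
Log2 ratio of rat to pool (y axis) of the 6 genes in each of 8 high and 9 low calcium rats; points are rats, bars the mean ± SD, and rats 3 and 18 are labelled. In Angptl4 rat 3 (0.39) and rat 18 (-0.50) are the extremes of all 17 rats.

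Arrays sat on slides of 4, and slides 1 to 4 each held 2 high and 2 low calcium rats, and slide 5 held low calcium rat 1 alone. Within slides 1 to 4 the high minus low difference of Ppara was 0.02, 0.06, 0.01 and 0.16, positive on each. That of Angptl4 was 0.08, -0.02, -0.41 and -0.30, and that of Slc16a1 was -0.23, 0.09, 0.21 and 0.27, so the sign of both changed between slides. Cpt1a, Acadm and Acadl also changed sign, with within-slide differences of -0.14 to 0.27 for Cpt1a, -0.15 to 0.21 for Acadm and -0.15 to 0.46 for Acadl. With the slide as a block the difference of Angptl4 was -0.16 (limma adjusted p = 0.718) and those of the other 5 genes lay between 0.03 and 0.19. Each slide value rests on 2 rats per diet and was not tested.

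Some members varied together from rat to rat. Over the 17 rats 15 pairs were compared, and 4 passed by Pearson's r and 3 by Spearman's rho, with two-sided permutation p-values from 100000 resamples adjusted over the 15 pairs. The values of a pair share the array of each rat and its mix of cells. How often pairs of other genes on these arrays reach such values was not computed, so these counts do not set the members apart. Slides, at 4 rats, were too small for a correlation within each, so r is also given with 16 rats centred on the mean of their slide, without the lone rat of slide 5.

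The 2 acyl-CoA dehydrogenases were high and low in the same rats: Acadm and Acadl had r = 0.69 (permutation adjusted p = 0.0178) and rho = 0.78 (permutation adjusted p = 0.00525). Within the diets r was 0.88 in high and 0.47 in low calcium rats, and 0.59 without rats 3 and 6, the 2 farthest from the median of Acadm. Centred on slides, r was 0.83. Cpt1a went with both enzymes. Its r with Acadm was 0.64 (permutation adjusted p = 0.033), and rho was 0.56 (permutation adjusted p = 0.0757). With Acadl its r was 0.61 (permutation adjusted p = 0.0337) and rho 0.64 (permutation adjusted p = 0.0319). Without rats 6 and 18 these 2 values of r were 0.52 and 0.44, and centred on slides they were 0.69 and 0.75. Rat 18 (high calcium) was at 0.24, 0.24 and 0.30 for Cpt1a, Acadm and Acadl, and rat 3 (high calcium) was at -0.16, -0.15 and -0.39.

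Angptl4 and Slc16a1 ran opposite to each other, with r = -0.70 (permutation adjusted p = 0.0178) and rho = -0.69 (permutation adjusted p = 0.0227). The inverse relation was present within each diet, at r = -0.65 in high and -0.71 in low calcium rats, and r was -0.50 without rats 3 and 18. Slide means ran opposite as well, at -0.15 for Angptl4 and 0.30 for Slc16a1 on slide 4, and r was -0.60 with rats centred on their slide. Angptl4 was lowest and Slc16a1 highest in the same animal, high calcium rat 18. Rat 3, with the highest Angptl4 (0.39), had one of the lowest values of Slc16a1 (-0.10). Ppara passed with no other member: its r was 0.35 with Cpt1a, 0.40 with Acadm, 0.42 with Acadl, -0.37 with Angptl4 and 0.32 with Slc16a1. The relation of Ppara and Slc16a1 was 0.73 in high and -0.35 in low calcium rats, a difference that was not tested.

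Because their values ran opposite, the stretches just upstream of Angptl4 and Slc16a1 are shown, as the 250 bases before the start of each gene in RefSeq's GRCr8 assembly, 5′ to 3′ on the gene's strand. That of Angptl4 is chr7:15258682-15258931 on the minus strand, and that of Slc16a1 is chr2:194812410-194812659 on the plus strand. Capitals mark matches to ACGTG, the core letters of the hypoxia response element, on either strand (CACGT on the other), which in Slc16a1 overlap as the palindrome CACGTG, the E-box.
Angptl4: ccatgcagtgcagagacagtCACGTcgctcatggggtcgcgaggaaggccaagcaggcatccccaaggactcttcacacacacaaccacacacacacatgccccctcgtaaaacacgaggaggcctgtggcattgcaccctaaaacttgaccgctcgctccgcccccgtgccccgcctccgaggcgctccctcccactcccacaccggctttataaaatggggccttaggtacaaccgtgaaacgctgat
Slc16a1: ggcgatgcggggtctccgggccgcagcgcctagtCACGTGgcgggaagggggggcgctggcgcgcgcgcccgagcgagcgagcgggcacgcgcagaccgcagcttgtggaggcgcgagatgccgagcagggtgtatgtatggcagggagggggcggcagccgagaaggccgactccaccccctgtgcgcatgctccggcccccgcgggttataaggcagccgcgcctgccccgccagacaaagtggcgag
The match in Angptl4 starts at position -230 and the E-box in Slc16a1 at -216, counted back from the gene's start. Of 33469 rat promoters of this length 16.6% hold ACGTG and 5.59% hold CACGTG on either strand. Among the 7 members with a promoter entry, ACGTG was in the windows of Angptl4 and Slc16a1 only. The letters of the cAMP response element, TGACGTCA, which 1.59% of promoters hold, were in that of Acadm only, at -103. Whether any of these letters bear on the values of the genes was not tested. The Slc16a1 window is rich in G and C, at 74.0%, and that of Angptl4 is at 60.0%, against a median of 51.2% over all promoters. The core of the PPAR response element, AGGTCA, is held by 14.1% of promoters. Its direct repeat, with a spacer of 1 base and 1 free letter in each core, is held by 0.368%. Both were found on neither strand in the windows of 7 members, which says only that these letters are not in these windows. Acadl had no promoter entry and was not searched, while Slc5a8 and Pdk4 are among the 7.

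**Figure D3:**
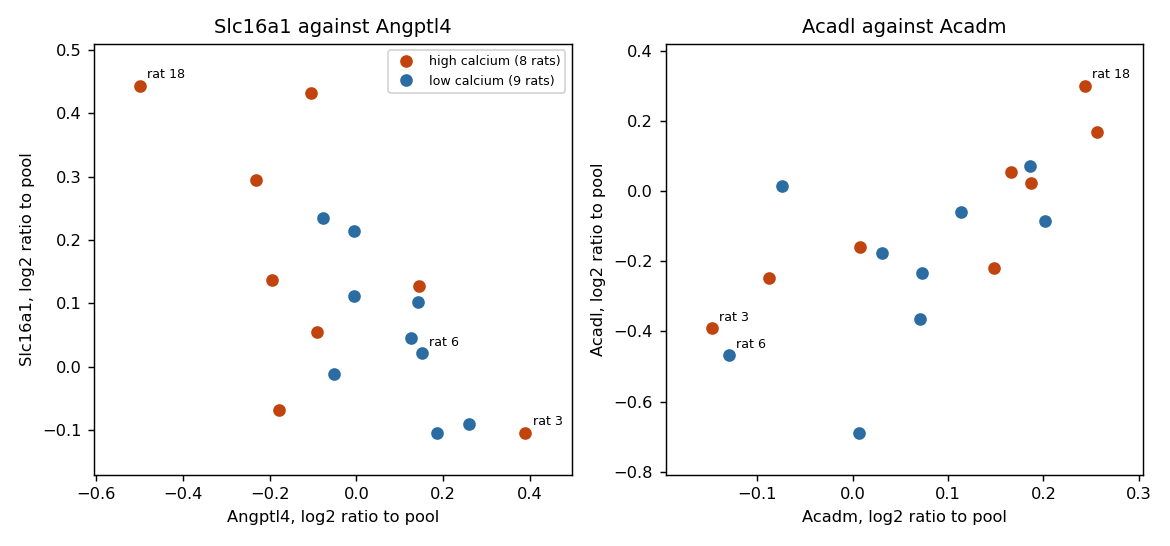
Slc16a1 against Angptl4 (left) and Acadl against Acadm (right), all as log2 ratio to the pool, in 8 high and 9 low calcium rats; each point is a rat, and rats 3, 6 and 18 are labelled. The left panel falls from rat 18 (-0.50 for Angptl4) to rat 3 (0.39), with r = -0.70, and the right panel climbs, with r = 0.69 and rat 18 at the upper right.

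The genes most like each member over the 17 rats were sought by Pearson's r among 11622 named genes, as a description with no p. Among those most like Acadm were Btnl3 and Aamdc, both at r = 0.88. For Cpt1a the genes most alike were Ache (r = 0.88), Fam241b (0.88) and Abcc3 (0.87). Acadl was most like Serinc3 (0.93), Itm2b (0.92) and Spint2 (0.89). Angptl4 was most like Fcgr2a, an Fc receptor of myeloid cells (0.90), Cpe, which encodes carboxypeptidase E (0.90), and Kcna3, a potassium channel known from lymphocytes and macrophages (0.90). Slc16a1 went with Med11 (0.84), Ppp1r14d (0.82) and Atmin (0.81). Ppara had weaker companions, Dmd, Slc2a10 and Syt7, each at 0.77, and for Dmd r was 0.44 in high and 0.94 in low calcium rats.

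Markers of other cell types varied between the same rats. The mean log2 ratio of 9 fibroblast markers was -0.26 ± 0.30 in high and 0.20 ± 0.21 in low calcium rats (SD, n = 8 and 9), and all 9 had a lower mean in high calcium rats, 7 with an unadjusted p under 0.05 and 0 past adjustment. By rat this mean was lowest in high calcium rat 18 (-0.73) and highest among high calcium rats in rat 3 (0.26) and rat 9 (0.01), which are the lowest and the 2 highest high calcium rats for Angptl4 too. The 9 macrophage markers averaged -0.21 ± 0.21 in high and 0.12 ± 0.14 in low calcium rats, and all 9 had a lower mean in high calcium rats. The 7 neutrophil markers averaged -0.24 ± 0.29 in high and 0.12 ± 0.23 in low calcium rats, with 0.35 in rat 3 and -0.63 in rat 18. Rat 9, high for Angptl4, was at -0.38 for the neutrophil and -0.11 for the macrophage markers. Low calcium rat 7, highest of its group for Angptl4 (0.26), was at 0.17 for fibroblast markers, in a group range of -0.18 to 0.45. The part of these cells in the values of Angptl4 was not tested. Of 6 adipocyte markers tested, 4 had a lower and 2 a higher mean in high calcium rats. Fabp4, a gene that macrophages share, was at -0.28 ± 0.31 in high and 0.25 ± 0.31 in low calcium rats, while Adipoq, the adipocyte hormone adiponectin, was at -0.09 ± 0.32 in high and -0.17 ± 0.32 in low calcium rats. The adipocyte markers Plin1 and Lep were too dim to be tested.

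The 12 mature colonocyte markers, the surface cells that burn butyrate, averaged 0.08 ± 0.33 in high and -0.08 ± 0.24 in low calcium rats (SD, n = 8 and 9). Of these 11 had a higher mean in high calcium rats, with a median difference of 0.19, and Guca2b, at -0.46, was the exception. By rat the list ran from -0.48 (rat 3) to 0.60 (rat 18) in high and from -0.47 (rat 6) to 0.25 (rat 15) in low calcium rats. Rats 3 and 6, the lowest for these markers, were also those with the lowest Acadm in their groups (-0.15 and -0.13), and rat 18, the highest, had among the highest Acadm, Acadl, Cpt1a and Slc16a1. Rat 9, second for these markers (0.38), did not follow this for Cpt1a, where it was among the lowest high calcium rats (-0.18). Nor did Slc16a1 follow it in rat 17 (0.43, with the markers at -0.05) or in rat 2 (-0.07, with the markers at 0.23). The broad epithelial list differed less, at 0.03 ± 0.08 in high and -0.03 ± 0.12 in low calcium rats. The part of the share of mature colonocytes in the values of these 4 genes was not tested.

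Around the members, 145 other genes of the same pathways were taken in 9 lists, and 122 of them were tested. In limma's test 0 had an adjusted p under 0.05, with a smallest value of 0.190, and 15 (12.3%) had an unadjusted p under 0.05, 9 higher (7.38%) and 6 lower (4.92%) in high calcium rats, beside the 3.95% and 4.84% of all probes. The count of 15 was 9 without high calcium rat 18 or low calcium rat 1, 23 without high calcium rat 3, 25 without high calcium rat 14, and 10 when slides were a block. The count over all probes, 2382 in the main fit, moved as well. It was 1589 without rat 18, 2096 without rat 1, 3053 without rat 3, 3084 without rat 14 and 2093 with the slide block. Of the 122 genes 71 had a higher and 51 a lower mean in high calcium rats, with a median difference of 0.02. Over all probes tested 54.0% had a positive difference and the median was 0.01, which also stands beside the list counts below. No gene named from these lists passed over all probes, so the values below are descriptions.

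Mitochondrial beta oxidation had 12 of its 18 tested genes with a higher and 6 with a lower mean in high calcium rats, with a median difference of 0.04. Hadh, the hydroxyacyl-CoA dehydrogenase for shorter chains, averaged -0.04 ± 0.20 in high and -0.23 ± 0.13 in low calcium rats, a difference of 0.20 ± 0.07, and its second probe gave 0.11. For Hadha, the alpha subunit of the trifunctional protein, the brightest probe differed by 0.12 ± 0.05, but its other 2 probes were at -0.01 and 0.03. Eci1, the enoyl-CoA isomerase that unsaturated fatty acids need, went the other way, at -0.12 ± 0.15 in high and 0.11 ± 0.10 in low calcium rats, a difference of -0.23 ± 0.06. Among 12 peroxisomal genes 7 had a higher and 5 a lower mean, with a median difference of 0.03. The activation and carnitine list was even, with 10 of 18 higher and a median of 0.01, and held Acsl4, an acyl-CoA synthetase that prefers arachidonic acid, at -0.20 ± 0.08. Its second probe gave -0.09.

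Of 17 receptors and cofactors of the PPAR group 13 had a higher mean in high calcium rats, with a median difference of 0.08, the largest of the 9 lists, and 13 to 15 did so in 10 other settings. Ncoa1, a nuclear receptor coactivator, differed by 0.13 ± 0.05, or by 0.05 on its other probe, and Prkaa2, a catalytic subunit of the AMP-activated kinase, by 0.11 ± 0.05. The sister receptors of Ppara gave small values, with Ppard at -0.04 ± 0.05 (0.01 with median centring, which moved the median of all probes to 0.04) and Pparg at 0.09 ± 0.08. Other known PPAR targets were higher in 14 of 21 genes, with a median of 0.03, and yet held the lowest difference of all 122 genes: Cidea, a lipid droplet protein, averaged -0.08 ± 0.15 in high and 0.20 ± 0.17 in low calcium rats, a difference of -0.28 ± 0.07 (limma adjusted p = 0.190). Plin2, which coats lipid droplets and is induced by fatty acids, was too dim to be tested.

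In the lipase axis of Angptl4, 7 of 8 genes had a lower mean in high calcium rats, and the median difference was -0.05. Of the 7, Mgll (-0.0077 ± 0.07) and Apoc2 (-0.0015 ± 0.04) hardly differed. Over 10 other settings the median of the list was -0.07 to 0.0013, below the median of all probes in each. The count was less stable. It was again 7 of 8 lower with a normexp offset of 0, but 5 of 8 with array weights and 4 of 8 with median centring. Lpl, the lipoprotein lipase that Angptl4 inhibits, averaged -0.02 ± 0.11 in high and 0.15 ± 0.19 in low calcium rats, so that enzyme and inhibitor both had the lower mean in high calcium rats. The difference was -0.18 ± 0.07 on its brighter probe and -0.14 on the other, and on the brighter probe it was -0.70 from the scanner software's processed signals. Lpl is known from fat cells, muscle and macrophages. Macrophage markers also had lower means in high calcium rats, and their part in its value was not tested.

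Among 14 genes of butyrate and monocarboxylate transport and sensing, 8 had a higher and 6 a lower mean in high calcium rats, with a median of 0.03. The 2 partner proteins that bring monocarboxylate transporters to the membrane differed in direction: Bsg, which partners MCT1, averaged -0.10 ± 0.11 in high and -0.23 ± 0.13 in low calcium rats, a difference of 0.13 ± 0.06, while Emb averaged -0.01 ± 0.24 in high and 0.26 ± 0.18 in low calcium rats, a difference of -0.27 ± 0.09. Slc16a3, the lactate exporter MCT4, differed by -0.07 ± 0.15 (0.02 with array weights), with low calcium rats spread from -0.77 to 0.76. The short-chain fatty acid receptor Ffar2 differed by -0.07 ± 0.06, and Hcar2, the butyrate and ketone receptor, was not tested because it was dim.

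Ketogenesis and ketone use had 3 of 6 tested genes higher and 3 lower, with a median of -0.01. Pyruvate use was split 7 to 7 with the same median. In that list Pc, pyruvate carboxylase, differed by 0.20 ± 0.09, and Ldhb, the lactate dehydrogenase subunit that favours pyruvate formation, averaged -0.09 ± 0.16 in high and 0.15 ± 0.13 in low calcium rats, a difference of -0.24 ± 0.07.

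**Figure D4:**
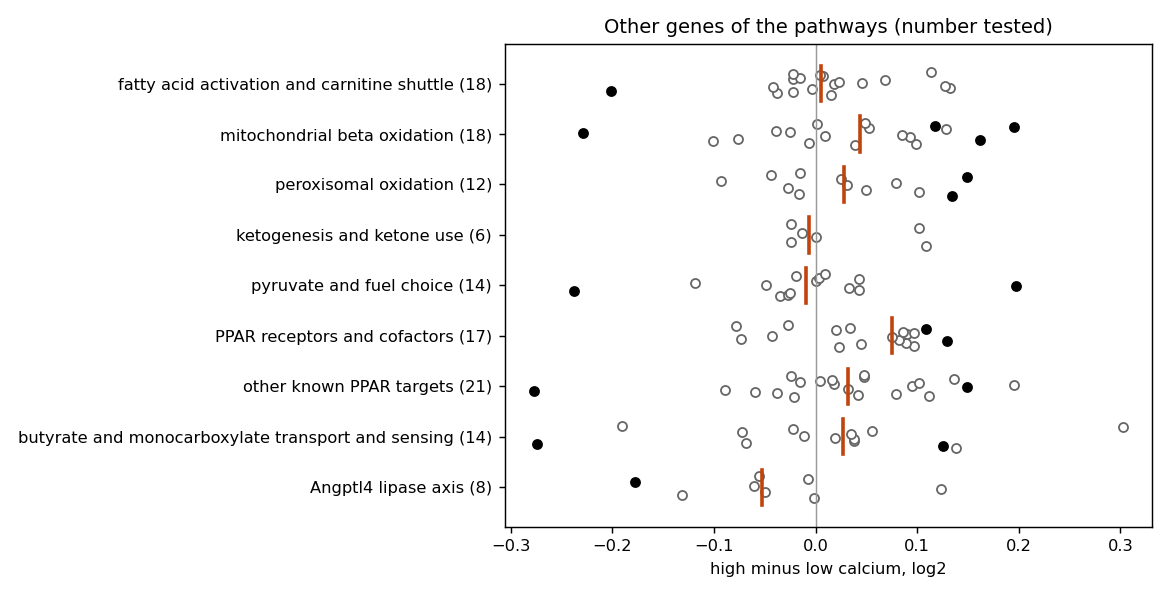
High minus low calcium difference (x axis, log2) of each tested gene in the 9 pathway lists, with the number tested in brackets; filled points have an unadjusted p under 0.05 and vertical marks are list medians. Medians lie between -0.05 (lipase axis of Angptl4) and 0.08 (PPAR receptors and cofactors), and 0 genes passed adjustment.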

How the data were processed

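RNA from colon scrapings was amplified and labelled per the labels' protocols. Spot intensity values of both dyes were read from the deposited scanner files, which per the file headers come from Feature Extraction 9.5.1.1 (9.5 per the submitters' processing notes). In the deposited series matrix 28213 of 45018 features have log2 values, and the authors' steps to them are not stated in those sources. They followed log2 Cy5/Cy3 (r = 0.979 across genes and arrays, both centred), had array medians of 8.76, and served as an alternative; the offset of their scale is unknown.

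Background was corrected with normexp (offset 50) and arrays normalised by loess in limma 3.58.1 under R 4.3.3, control and outlier-flagged spots at weight 0. Flagged spots were set to missing and the spots of a probe averaged. A probe was tested if, on 8 or more arrays of any group, 1 or more of its Cy5 spots stood well above background. A gene was its brightest probe. Diets were compared with limma (lmFit and eBayes, two-sided, no covariates, Benjamini-Hochberg over 27101 probes, threshold 0.05); exact permutation tests of single members and correlations used the same values. Rats are separate animals per the labels, and the dyes were never swapped, so a dye effect is common to both diets. Array signal (median Cy5 146.8 to 180.8 over 43.5 to 53.5 background) and the number of rats limit precision.

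The array's names were replaced by RefSeq symbols (GRCr8) where an accession (10735 probes), a symbol (5577) or a synonym (3730) matched; 20970 probes stayed as named. Promoters are RefSeq's, matched by symbol for 7 of 8 members, all but Acadl. The members, lists, markers and naming rule were chosen with earlier results of these data known. All members are named, as are the 6 pathway genes with the smallest unadjusted p in each direction, 8 fixed pathway genes, and the 3 genes most alike to each member, leaving out accessions and uncharacterised names; the values of 2 genes under this rule are not reported here. Cell type lists were used to check the tissue and to stand beside the members. The fit was tested on simulated data. Alternatives covered background correction, normalisation, channel, source of values, filter, array weights, slide, probe rule and leaving out each rat.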

Additional observations from a re-analysis of the deposited data

Results flagged for a closer look

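Of 14 groups of rats checked, 7 genes in each diet, 1 held a rat far from the others: Pdk4 in low calcium rat 7, at 0.38 on the log2 scale. The gap to the nearest other rat was 0.521 of the group's whole range, above the limit of 0.493 for 9 samples. Chance gives such a gap in about 1 in 20 groups. The Pdk4 spot was not well above background on that array or on any other.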

How the results depend on the processing

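The number of rats and, for Ppara and Pdk4, signal near background limit what can be seen, and a change shared by most genes is removed by normalisation. The count of members past the threshold was 0 in each of 11 other settings and in each of 17 fits without 1 rat, as was the count of pathway genes. Over all probes the count was 0 in the 11 other settings and 0 to 193 when 1 rat was left out; the values above 0 were 193, of which 16 higher, without high calcium rat 3, and 38, all lower, without low calcium rat 16. The cause was not tested.

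Ppara was -0.012 with median centring and up to 0.31 in other settings, and the cause was not tested. The other 5 members kept their direction in these settings and without any 1 rat, but not their size. In other settings Angptl4 lay between -0.29 and -0.15, Cpt1a between 0.11 and 0.18, Acadm between 0.03 and 0.10, Acadl between 0.10 and 0.24, and Slc16a1 between 0.05 and 0.18. With 1 rat left out these ranges were -0.25 to -0.12, 0.08 to 0.15, 0.02 to 0.08, 0.10 to 0.21 and 0.07 to 0.14, in that order. The pathway genes named that changed sign were Ppard (0.014, median centring) and Slc16a3 (0.0239 with array weights, and -0.17 to 0.0241 with 1 rat left out, positive without low calcium rat 15); the cause was not tested. Median centring moved the median of all probes to 0.0405, against 0.0069, so list medians were set against it. In each of 10 settings the median lay above that of all probes for mitochondrial and peroxisomal oxidation, PPAR cofactors and PPAR targets, and below it for the lipase axis. It lay above it in 4 of 10 settings for activation and carnitine, 5 for ketogenesis, 1 for pyruvate and 8 for butyrate transport. Pathway genes with an unadjusted p under 0.05 numbered 1 with median centring, 22 without background subtraction, 23 with array weights, and 9 to 25 with 1 rat left out. All probes with an unadjusted p under 0.05 numbered 780 with median centring, 2590 without background subtraction, 3430 with array weights, and 1589 to 3084 with 1 rat left out. No paired analysis was possible because each rat has a number of its own and no number is shared between the diets.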

Other observations

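Beside the lists above, goblet cell markers averaged 0.11 ± 0.19 in high and -0.11 ± 0.14 in low calcium rats (SD, n = 8 and 9), with 4 of 5 tested genes higher, a median difference of 0.26 and Tff3, the trefoil peptide of goblet cells, at 0.29 ± 0.09 (limma adjusted p = 0.259). Smooth muscle markers had 3 of 7 genes higher and a median difference of -0.02. They averaged -0.07 ± 0.14 in high and -0.01 ± 0.11 in low calcium rats. Smtn, with the smallest unadjusted p of this list, was at 0.13 ± 0.05, while Tagln went the other way, at -0.31 ± 0.14. Skeletal muscle markers had 3 of 5 higher, with Acta1 at 0.20 ± 0.05. Lymphocyte markers had 4 of 7 lower, with Cd2 at -0.25 ± 0.08, and endothelial markers 5 of 6 lower, with Vwf at -0.28 ± 0.08. Of the adipocyte list 4 of 6 tested genes were lower, with a median difference of -0.08. Both tested hepatocyte markers had a higher mean in high calcium rats, with Apob, which enterocytes also make, at 0.14 ± 0.08. The smallest unadjusted p in the fibroblast, macrophage, neutrophil and epithelial lists belonged to Dcn (-1.03 ± 0.22), Gpnmb (-0.72 ± 0.16), Mmp9 (-1.01 ± 0.21) and Cldn7 (0.14 ± 0.08), none past adjustment (limma adjusted p = 0.142 for the first 3).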
